A study of Mus musculus with 47 samples.

Results

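The vacuolar ATPase (V-ATPase) is a rotary proton pump that acidifies lysosomes, endosomes and secretory vesicles. Its peripheral V1 sector hydrolyses ATP and turns a central stalk, and its V0 sector in the membrane carries the protons. Subunit d joins the stalk to the membrane ring and has a pair of isoforms, the broadly expressed Atp6v0d1 and Atp6v0d2, which is best known from osteoclasts, where it takes part in cell fusion, and from macrophages. The question was whether a rise of Atp6v0d2 in the liver of antibiotic-treated mice was shared by the rest of the pump. The genes were chosen by the measured signal of Atp6v0d2, which was higher after antibiotics in these same mice, so its antibiotic differences are given as values with their errors and without a test.

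The members were 10 V-ATPase genes: subunit d (Atp6v0d1, Atp6v0d2), subunit a (Atp6v0a1), the proteolipids of the proton-carrying ring (Atp6v0b, Atp6v0c) and, in V1, the catalytic subunit A (Atp6v1a), its partner B (Atp6v1b2) and subunits D, E and H (Atp6v1d, Atp6v1e1, Atp6v1h). Their gene probes on the array number 20 of 56605, and 18 of them were tested, having cleared background on 5 or more arrays of some group, among 32975 tested probes of 21874 genes. The probes left out were 1 of 4 for Atp6v0a1 and 1 of 2 for Atp6v1a, so that all 10 genes kept at least 1 probe. The probe with the highest mean signal of each gene, which gives the gene's value below, was well above background on all 47 arrays for all 10 genes, and none was saturated.

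Hepatic mRNA was measured in C57BL/6J mice that were 6 months old, 1 array per mouse, in 8 groups: male (M) and female (F), Pxr+/+ and Pxr-/-, control (Cont) and antibiotic-treated (ATB). There were 5 Pxr-/- Cont males and 6 mice in every other group. The Pxr-/- and Pxr+/+ mice were littermates from Pxr+/- parents and lack or keep the pregnane X receptor PXR, encoded by Nr1i2, in every cell. ATB mice drank ampicillin at 1 g/L, neomycin at 1 g/L and vancomycin at 0.5 g/L for 2 weeks, and Cont mice tap water. The mice of each group came from 2 cages, and which mouse came from which cage is not given in the sources used here, so that p-values measure the spread between mice without regard to cage. The tested Nr1i2 probe spanned 11.2 to 12.4 (log2) in Pxr+/+ and 10.4 to 11.9 in Pxr-/- mice. Whether that probe lies in the deleted part is not known, and it therefore checks no label. Between 31070 and 34458 of the gene probes were well above background on each array, and all 10 listed hepatocyte genes were well above background on all 47 arrays.

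Both Atp6v0d2 probes are printed because the finding rests on them, with the stretch of the Atp6v0d1 probe that corresponds to the same place in the paralog. The array's annotation puts the 3′ probe at chr4:19805367-19805426 and the upstream probe at chr4:19837769-19837828 (mm9, minus strand), both on the transcript of Atp6v0d2 and 32.3 kb apart on the chromosome. The Atp6v0d1 probe lies at chr8:108048778-108048837 on the minus strand. Capitals mark bases that are the same in the 3′ probe of Atp6v0d2 and in Atp6v0d1 when the probes are aligned without gaps.
Atp6v0d2, 3′ probe: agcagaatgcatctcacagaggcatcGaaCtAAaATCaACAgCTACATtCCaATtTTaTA
Atp6v0d1, first bases of its probe: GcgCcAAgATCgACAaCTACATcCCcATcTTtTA
Atp6v0d2, upstream probe: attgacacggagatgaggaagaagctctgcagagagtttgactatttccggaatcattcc
Over the 34 bases that the first pair share, 24 are identical, and the rest of each probe extends to different sides. The best ungapped overlap of the upstream probe with the Atp6v0d1 probe held 18 identical bases of 44.

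Atp6v0d2 was higher after antibiotics in both sexes and both genotypes. In M Pxr+/+ mice its level (normalized log2 signal of the 3′ probe) ran from 5.93 through a median of 6.19 to 6.45 in Cont mice and from 7.34 through 7.52 to 8.55 in ATB mice. In M Pxr-/- mice the values were 5.71, 6.13 and 6.37 in Cont and 6.87, 7.40 and 7.68 in ATB mice. Every ATB male was above every Cont male of its genotype.

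In females the gene started from a higher level. F Pxr+/+ mice ran from 7.49 through 8.96 to 9.68 in Cont and from 9.05 through 9.78 to 9.94 in ATB mice, so that these groups overlapped. F Pxr-/- mice ran from 8.27 through 8.75 to 9.17 in Cont and from 9.20 through 9.49 to 9.83 in ATB mice, with no overlap.

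**Figure D1:**
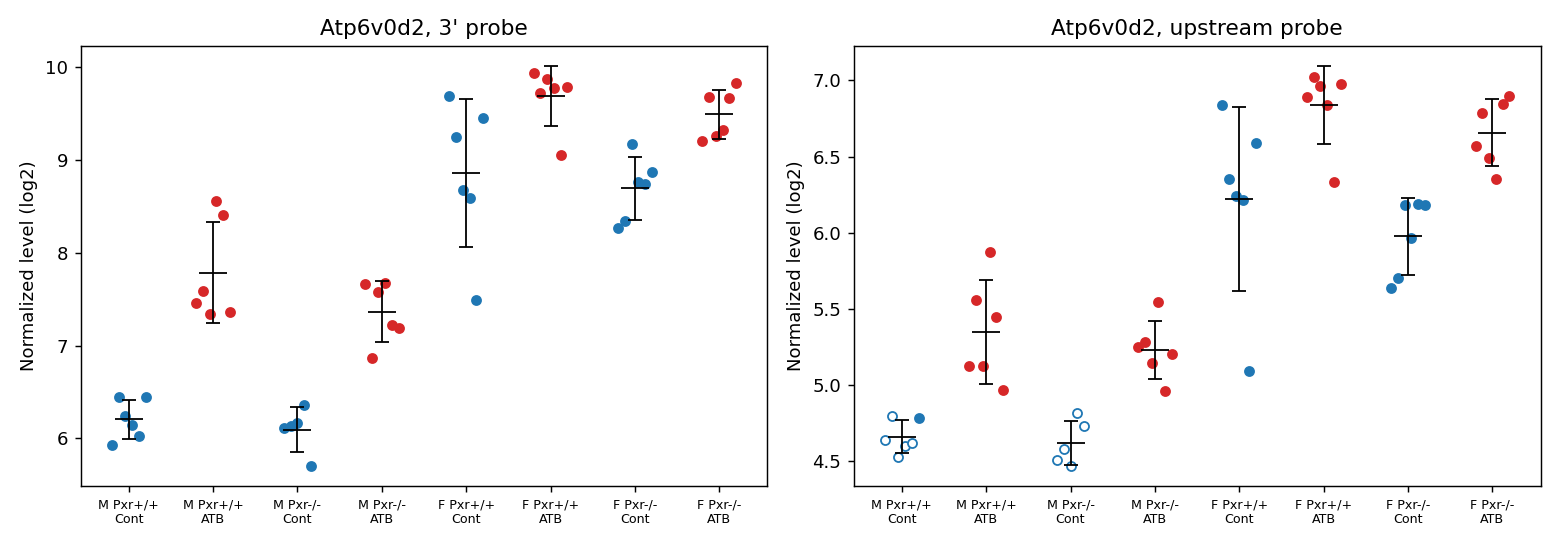
Atp6v0d2 level (normalized log2 signal) in each of 47 mice, by group, for the 3′ probe (left) and the upstream probe (right); the axes do not start at 0. Blue points are Cont and red points ATB mice, open points were not well above background, and black bars are the mean ± SD; ATB mice sit higher in all 4 pairs, and females sit above males.

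The group means ± SD were 6.21 ± 0.21 (n = 6) and 7.78 ± 0.55 (n = 6) for Cont and ATB in M Pxr+/+ mice, a difference of 1.58 (SE 0.24) or 2.98-fold. In M Pxr-/- mice they were 6.10 ± 0.24 (n = 5) and 7.37 ± 0.33 (n = 6), a difference of 1.27 (SE 0.25) or 2.41-fold. In F Pxr+/+ mice they were 8.85 ± 0.80 (n = 6) and 9.69 ± 0.32 (n = 6), a difference of 0.83 (SE 0.24) or 1.78-fold, and in F Pxr-/- mice 8.69 ± 0.34 (n = 6) and 9.49 ± 0.26 (n = 6), a difference of 0.80 (SE 0.24) or 1.74-fold. The F Pxr+/+ value leaned on 1 low Cont mouse, replicate 5, at 7.49, without which the difference was 0.55. Among the 21874 genes, ranked by the probe with the highest signal, the rise of Atp6v0d2 stood 4th, 14th, 22nd and 33rd in these 4 comparisons. These ranks describe the value by which the gene was chosen, so a high rank was fixed in advance.

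The slides carried at most 1 array of each group, which allowed the difference to be read within a slide. ATB was above Cont on 6 of 6 slides in M Pxr+/+ mice (0.91 to 2.41), on 5 of 5 in M Pxr-/- mice (0.75 to 1.53), on 6 of 6 in F Pxr+/+ mice (0.26 to 1.57) and on 6 of 6 in F Pxr-/- mice (0.09 to 1.34). It was also above Cont within each of the 3 wash batches, by 0.91 to 2.39, 1.17 to 1.51, 0.33 to 1.34 and 0.45 to 1.00 in the same order. These are the arrays by which the gene was chosen, so the counts describe how the rise is spread and repeat nothing independently.

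The upstream probe went the same way. It was well above background in 1 of 6 M Pxr+/+ Cont mice, in 0 of 5 M Pxr-/- Cont mice and in all mice of the other 6 groups. Its ATB differences were 0.62 (SE 0.17) in F Pxr+/+ and 0.68 (SE 0.17) in F Pxr-/- mice. In M Pxr+/+ mice the fitted difference was 0.69, against a Cont level that was above background in 1 of 6 mice, so that its size is not well measured. In M Pxr-/- mice ATB was at least 1.44-fold higher, with the Cont level on each array set to that of the dimmest probe still well above background there, or to the probe's own where higher. Over the 47 arrays the probes had a Pearson r of 0.976, and after removal of group and wash batch means r was 0.845.

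By the 3′ probe the ATB difference was larger in males than in females, by 0.74 (SE 0.34) in Pxr+/+ and by 0.47 (SE 0.35) in Pxr-/- mice. The medians of all tested probes for these were 0.16 and -0.05. Over other processing the values for Atp6v0d2 ran from 0.32 to 0.87 and from 0.30 to 0.83. The upstream probe cannot show a larger difference in males either way, since its male Cont levels were mostly not well above background. The ATB difference in Pxr-/- less that in Pxr+/+ mice was -0.31 (SE 0.35) in males and -0.03 (SE 0.34) in females by the 3′ probe, where the medians of all tested probes were -0.09 and 0.13. None of these was tested, since the gene was chosen for its ATB difference.

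The other 9 subunits showed no such rise. With limma and Benjamini-Hochberg adjustment over all tested probes (a gene was called when at least 1 of its probes had an adjusted p up to 0.05 and changed by over 1.2-fold), 0 of 9 were called in any of the 4 ATB comparisons, where 1.36%, 0.11%, 0.0183% and 0.0457% of all genes were called in M Pxr+/+, M Pxr-/-, F Pxr+/+ and F Pxr-/- mice. Such low shares leave few calls for any list of 9 genes, so the sizes of the differences say more than the count. At an unadjusted p under 0.05, 2, 0, 2 and 0 of the 9 had a probe that passed, against 23%, 9.23%, 13.9% and 15.8% of all genes.

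Differences of the 9 genes, from the highest-signal probe of each, ran from 0.02 to 0.18 with a median of 0.11 in M Pxr+/+ mice, where the median of all tested probes was 0.10. They ran from -0.04 to 0.13 with a median of 0.01 in M Pxr-/- mice (all probes 0.01), from -0.22 to 0.02 with a median of -0.13 in F Pxr+/+ mice (all probes -0.06) and from 0.02 to 0.16 with a median of 0.11 in F Pxr-/- mice (all probes 0.06). In none of the 4 comparisons did a 95% interval of these highest-signal probes of the 9 reach the estimate for Atp6v0d2. Their highest upper limits were 0.46, 0.31, 0.19 and 0.41 (1.38-fold, 1.24-fold, 1.14-fold and 1.33-fold), below the Atp6v0d2 differences of 1.58, 1.27, 0.83 and 0.80. In F Pxr-/- mice the interval of Atp6v0d2 itself began at 0.32, so that intervals met there. Atp6v0d2 was chosen for its rise, so these gaps are described and not tested, and other probes of the 9 genes are not in them.

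**Figure D2:**
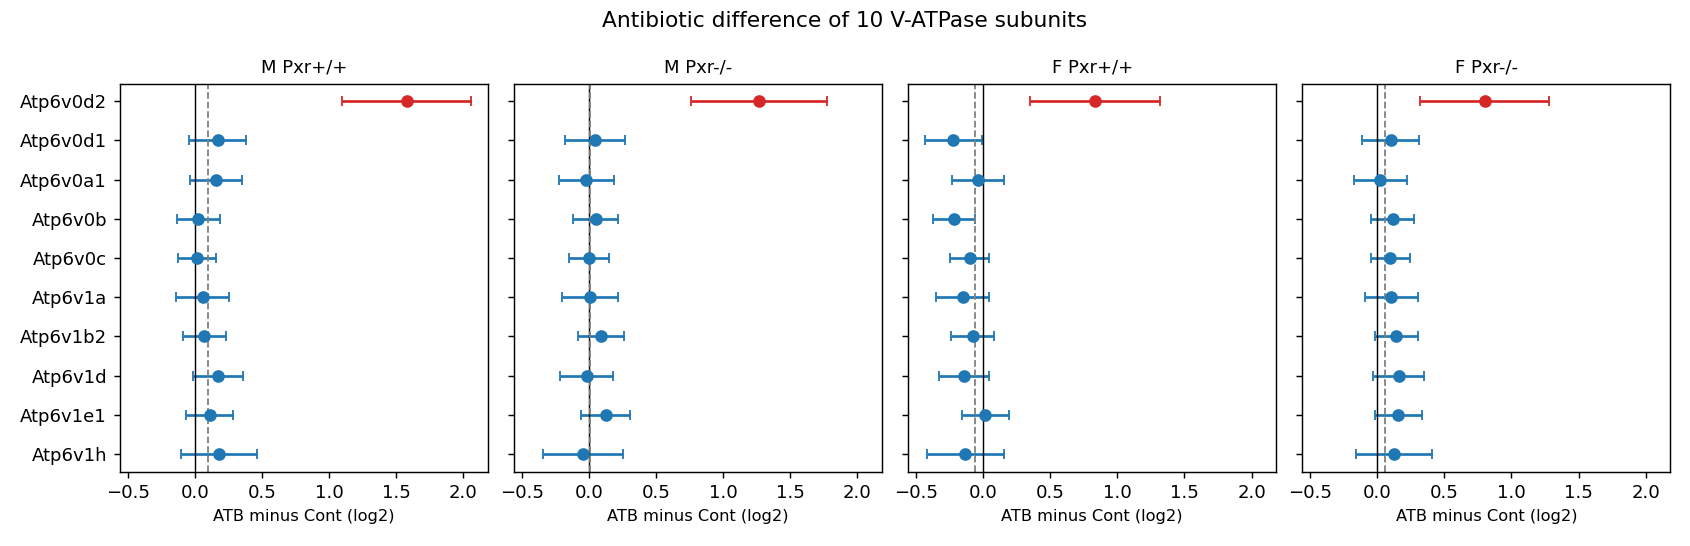
ATB minus Cont difference (log2) of the 10 subunits in M and F, Pxr+/+ and Pxr-/- mice, from the highest-signal probe of each gene. Points are limma estimates with 95% intervals, the solid line is 0 and the dashed line the median of all tested probes; Atp6v0d2 (red) stands at 0.80 to 1.58, and the other 9 (blue) between -0.22 and 0.18.

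Atp6v0d1, the paralog that holds the same place in the pump, had levels of 11.07, 11.24 and 11.30 (lowest, median and highest) in M Pxr+/+ Cont and 11.16, 11.37 and 11.59 in ATB mice, and of 11.30, 11.55 and 11.80 in F Pxr+/+ Cont and 11.13, 11.27 and 11.59 in ATB mice. Its ATB differences were 0.17 (SE 0.10) in M Pxr+/+, 0.05 (SE 0.11) in M Pxr-/-, -0.22 (SE 0.10) in F Pxr+/+ and 0.10 (SE 0.10) in F Pxr-/- mice, with adjusted p of 0.383, 0.966, 0.459 and 0.76. Cont and ATB mice overlapped in all 4 pairs. Subunit a, which faces the stalk from the membrane side, had the largest single-probe value among the 9 in M Pxr+/+ mice: a second probe of Atp6v0a1 differed by 0.36 (SE 0.14, adjusted p 0.178), while its brightest probe differed by 0.16 (SE 0.10, adjusted p 0.377).

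The proteolipids stayed close to 0 in males. Atp6v0b differed by 0.03 (SE 0.08) in M Pxr+/+ and 0.05 (SE 0.08) in M Pxr-/- mice, and Atp6v0c by 0.02 (SE 0.07) in M Pxr+/+ mice. In F Pxr+/+ mice Atp6v0b differed by -0.22 (SE 0.08, adjusted p 0.344). In V1, the catalytic subunit Atp6v1a differed by 0.06, 0.01, -0.15 and 0.10 in the 4 comparisons (SE 0.10 each), and Atp6v1h, the regulatory subunit H, by 0.18, -0.04, -0.13 and 0.13 (SE 0.14 to 0.15). Of the probes of the 9 genes, 1 had ATB and Cont groups that did not overlap, the second Atp6v1b2 probe in M Pxr+/+ mice. Its difference was 0.22 (SE 0.08), with an adjusted p of 0.131 in limma's test. The share of all tested probes without overlap was not computed, so this count is not read as few or many.

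**Figure D3:**
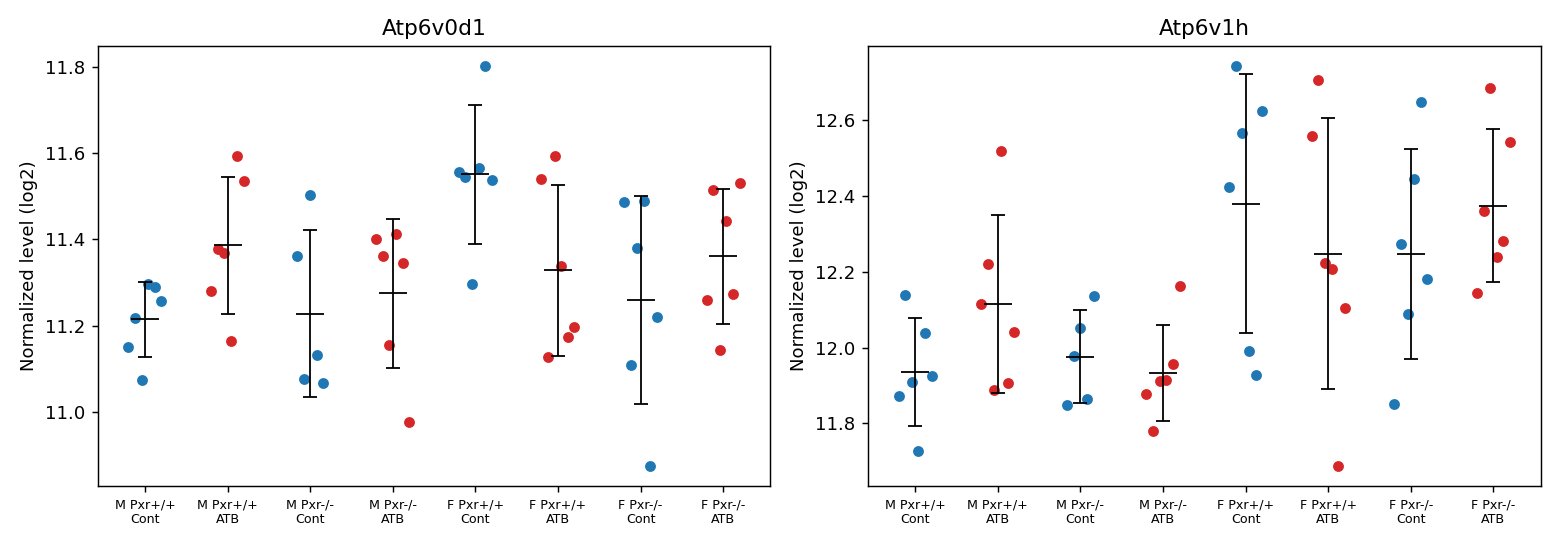
Levels (normalized log2 signal) of Atp6v0d1 (left) and Atp6v1h (right) in each of 47 mice, by group, on axes that do not start at 0. Blue points are Cont and red points ATB mice, and black bars are the mean ± SD; Cont and ATB mice overlap in all 4 pairs for both genes.

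The remaining subunits and assembly factors gave the same count of 0 calls. Of all genes 1.36%, 0.11%, 0.0183% and 0.0457% were called in M Pxr+/+, M Pxr-/-, F Pxr+/+ and F Pxr-/- mice. Such shares leave few calls for lists of this size. Of 15 further subunit genes 11 were tested, among them the accessory proteins Atp6ap1 and Atp6ap2 and the osteoclast isoform of subunit a, Tcirg1, and limma called 0 in any ATB comparison. At an unadjusted p under 0.05 a probe passed for 2, 0, 5 and 1 of the 11 in the same order. Of 8 assembly and regulatory factors, 0 were called either, with 2, 1, 3 and 1 at that p. All genes passed it in 23%, 9.23%, 13.9% and 15.8% of cases. In F Pxr+/+ mice 5 of 11 and 3 of 8 were above that share, and the remaining counts were near or below it. The medians of the 11 subunits were 0.11, 0.06, -0.13 and -0.01 in M Pxr+/+, M Pxr-/-, F Pxr+/+ and F Pxr-/- mice.

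Lysosomal genes were the next list along the pathway, since the pump acidifies that compartment. Of 41 tested, 1 rose in M Pxr+/+ ATB mice, Naglu, which degrades heparan sulfate (0.46, SE 0.11, adjusted p 0.0295), and 1 fell in M Pxr-/- ATB mice, Arsa, a sulfatase (-0.67, SE 0.11, adjusted p 0.000913). Of all genes 1.36% were called in M Pxr+/+ and 0.11% in M Pxr-/- mice. At an unadjusted p under 0.05 a probe passed for 13, 3, 10 and 6 of the 41. The order is M Pxr+/+, M Pxr-/-, F Pxr+/+ and F Pxr-/- mice, where 23%, 9.23%, 13.9% and 15.8% of all genes passed. The list medians were 0.10, 0.02, -0.07 and 0.07, beside 0.10, 0.01, -0.06 and 0.06 for all probes. Of 18 genes of the TFEB family and of mTORC1 docking at the lysosome, 0 were called (3, 2, 4 and 0 at an unadjusted p under 0.05), with medians of 0.11, -0.01, -0.08 and 0.03.

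Because Atp6v0d2 is known from macrophages and osteoclasts, markers of both were read beside it. All 22 listed macrophage genes were tested and limma called 0 in any ATB comparison, with 2, 8, 15 and 0 at an unadjusted p under 0.05 in M Pxr+/+, M Pxr-/-, F Pxr+/+ and F Pxr-/- mice. Of all genes 1.36%, 0.11%, 0.0183% and 0.0457% were called, and 23%, 9.23%, 13.9% and 15.8% passed that p. The counts of 8 and 15 were above the share of all genes at that p, and those of 2 and 0 below it. Their summed level (log2) ran from 14.73 to 15.20 in Cont and from 14.27 to 15.32 in ATB M Pxr+/+ mice, from 14.04 to 15.04 and from 14.17 to 16.60 in M Pxr-/-, from 15.68 to 16.62 and from 14.55 to 16.19 in F Pxr+/+, and from 14.80 to 15.44 and from 14.58 to 15.55 in F Pxr-/- mice. Their median difference was -0.17, 0.43, -0.56 and -0.12, below 0 in the 3 comparisons other than M Pxr-/- mice, while Atp6v0d2 was higher in all 4. In F Pxr+/+ mice all 22 were below 0 and in M Pxr-/- mice 19 were above it, and their part in the Atp6v0d2 difference of M Pxr-/- mice was not tested.

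The M Pxr-/- ATB mouse with the summed macrophage level of 16.60, replicate 1, had an Atp6v0d2 level of 7.67, and without it the Atp6v0d2 difference in that comparison was 1.21. After removal of group and wash batch means, the summed macrophage level and Atp6v0d2 had an r of 0.12 over the 47 mice. The summed level of the 10 hepatocyte genes had an r of 0.15 on the same scale, and without that removal r was 0.44 for macrophage and 0.62 for hepatocyte genes. Of the hepatocyte genes limma called 0 in the ATB comparisons, with 5, 2, 1 and 3 of 10 at an unadjusted p under 0.05. The shares of all genes at that p, for this list and the next ones, were 23%, 9.23%, 13.9% and 15.8%. Of 8 neutrophil genes 5 were tested and 0 called, with 1, 1, 4 and 3 of 5 at that p. Their summed level had Cont and ATB medians of 9.38 and 8.99 in M Pxr+/+ and 9.18 and 9.52 in M Pxr-/- mice. In females these were 10.43 and 9.47 in Pxr+/+ and 9.94 and 9.37 in Pxr-/- mice. The median was higher after ATB in M Pxr-/- mice, as Atp6v0d2 was, and lower in the other comparisons. The part of the neutrophil genes in the result was not tested. Of 12 osteoclast and giant cell genes 7 were tested and 0 called (1, 0, 2 and 0 at an unadjusted p under 0.05), and Calcr, Dcstamp and Siglec15 were well above background on at most 1 array. Of 10 genes of lipid-associated macrophages 9 were tested and 0 called (5, 2, 2 and 1 at an unadjusted p under 0.05). In whole liver, fewer cells of a type and less RNA per cell cannot be told apart.

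**Figure D4:**
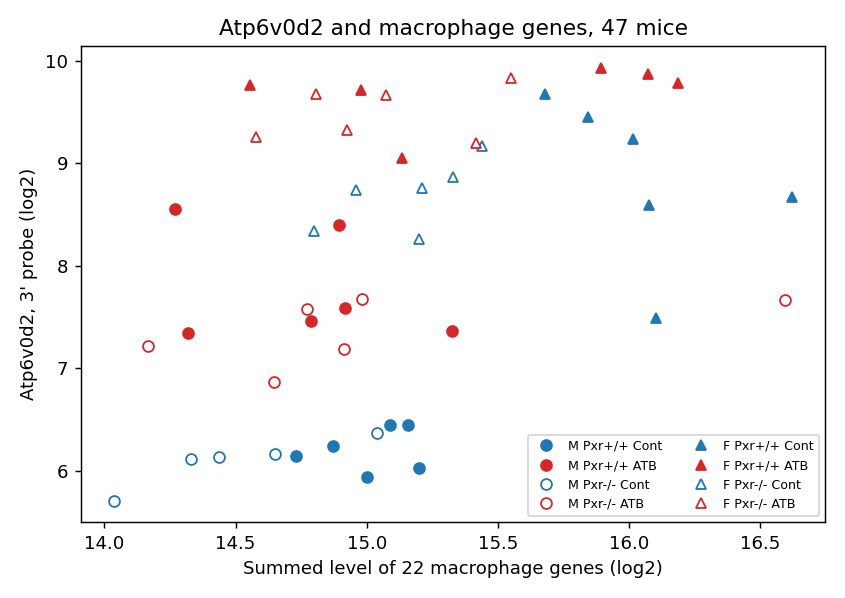
Atp6v0d2 level (normalized log2 signal, 3′ probe) against the summed level of 22 macrophage genes (log2) in each of 47 mice; the axes do not start at 0. Circles are males and triangles females, filled points Pxr+/+ and open points Pxr-/-, blue Cont and red ATB; within each sex and genotype the red points sit higher, with overlap in F Pxr+/+ mice, while the spans of red and blue points from left to right overlap in each, and 1 M Pxr-/- ATB mouse lies apart at 16.60.

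Sex was the larger difference for Atp6v0d2, and it was not part of how the gene was chosen, although the same Cont and ATB mice enter both contrasts. In M less F mice its level differed by -2.65 (SE 0.24, 6.27-fold lower, adjusted p 1e-11) in Pxr+/+ Cont and by -2.59 (SE 0.25, 6.04-fold lower, adjusted p 8.69e-11) in Pxr-/- Cont mice in limma's test. In ATB mice it differed by -1.90 (SE 0.24, 3.74-fold lower, adjusted p 6.36e-08) in Pxr+/+ and by -2.13 (SE 0.24, 4.36-fold lower, adjusted p 3.6e-09) in Pxr-/- mice. Males and females did not overlap in any of these 4 comparisons, and the share of all genes without such overlap was not computed. By limma 36.6%, 18.7%, 14.4% and 30.3% of all genes were called in either direction.

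The upstream probe was also lower in males, with differences of -1.49 (SE 0.17) in Pxr+/+ ATB and -1.43 (SE 0.17) in Pxr-/- ATB mice. In Pxr+/+ Cont mice the fitted difference was -1.56, with 1 of 6 males above background. In Pxr-/- Cont mice females were at least 2.42-fold higher, with males below the level of detection. Ordered by mean, the 8 groups were M Pxr-/- Cont, M Pxr+/+ Cont, M Pxr-/- ATB, M Pxr+/+ ATB, F Pxr-/- Cont, F Pxr+/+ Cont, F Pxr-/- ATB and F Pxr+/+ ATB. Neighbours in that order overlapped in 6 of 7 steps, the exception being the step from M Pxr+/+ Cont (up to 6.45) to M Pxr-/- ATB (from 6.87).

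The other 9 subunits differed less between the sexes. The median of all tested probes in M less F mice was itself -0.20 in Pxr+/+ Cont, -0.12 in Pxr-/- Cont, -0.03 in Pxr+/+ ATB and -0.18 in Pxr-/- ATB mice, and the subunits are read against it. In Pxr+/+ Cont mice 4 were called lower in males, beside 34.2% of all genes called lower, with a median over the 9 of -0.23. They were Atp6v0d1 (-0.34, SE 0.10, adjusted p 0.0127), Atp6v1a (-0.33, SE 0.10, adjusted p 0.00871), Atp6v1b2 (-0.41, SE 0.08, adjusted p 0.000143) and Atp6v1h (-0.44, SE 0.14, adjusted p 0.0142). Under quantile normalization of all arrays, which brings the median of all probes to 0.02, 0 of the 9 were called. The split over all genes moved with it, from 7475 lower and 552 higher in males to 2016 lower and 1967 higher.

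Atp6v1b2, the nucleotide-binding partner of the catalytic subunit, was called in 3 of the 4 sex comparisons. Its level ran from 11.17 through 11.37 to 11.58 in M and from 11.58 through 11.82 to 11.88 in F Pxr+/+ Cont mice. In Pxr-/- Cont mice it was the 1 gene of the 9 called lower in males (15.9% of all genes), by its second probe at -0.31 (SE 0.08, adjusted p 0.00795). In Pxr-/- ATB mice 3 were called lower (27.5% of all genes), namely Atp6v1a (-0.27, SE 0.10, adjusted p 0.0346), Atp6v1b2 (-0.30, SE 0.08, adjusted p 0.00535) and Atp6v1h (-0.44, SE 0.14, adjusted p 0.0175). Both counts are near the share of all genes and fell to 0 under quantile normalization and under normexp background correction. In Pxr+/+ ATB mice 0 were called (10.3% of all genes). At an unadjusted p under 0.05, 8, 1, 1 and 4 of the 9 had a probe that passed. The order is Pxr+/+ Cont, Pxr-/- Cont, Pxr+/+ ATB and Pxr-/- ATB, where 52.7%, 36.2%, 29% and 46.3% of all genes passed.

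**Figure D5:**
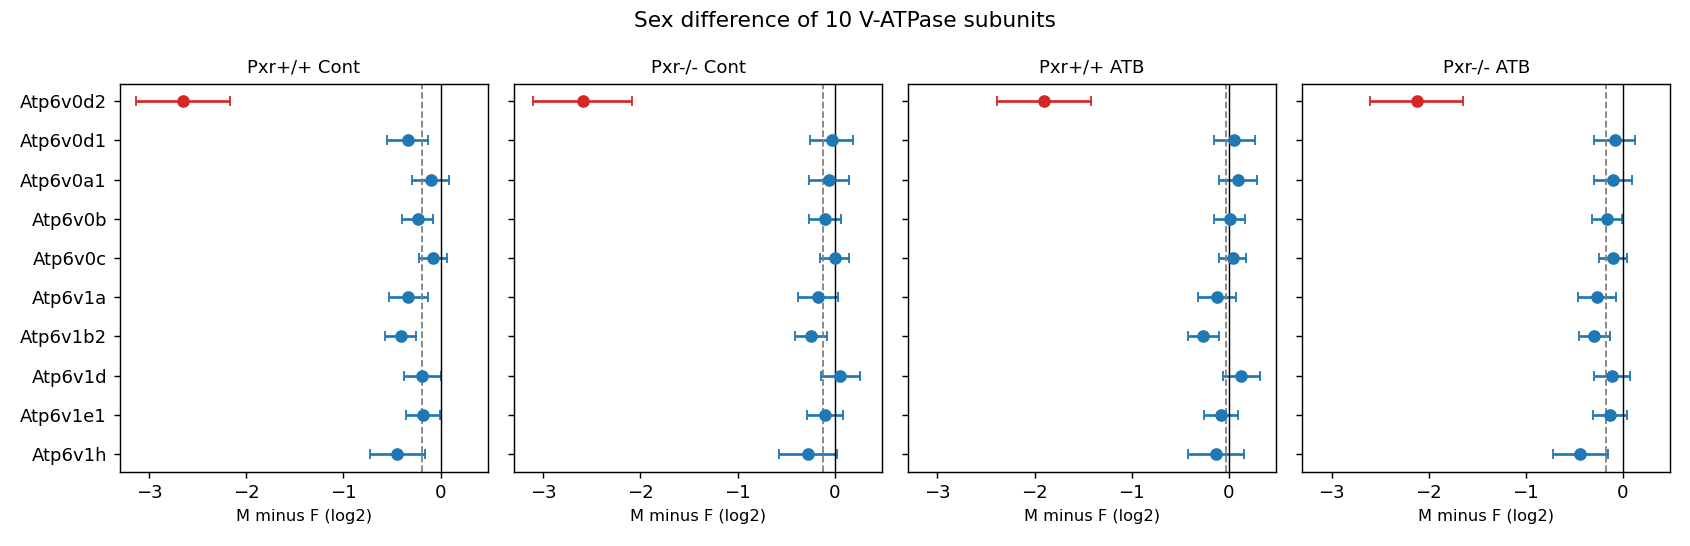
M minus F difference (log2) of the 10 subunits in Pxr+/+ and Pxr-/-, Cont and ATB mice, from the highest-signal probe of each gene. Points are limma estimates with 95% intervals, the solid line is 0 and the dashed line the median of all tested probes; Atp6v0d2 (red) stands at -2.65 to -1.90 and the other 9 (blue) between -0.44 and 0.13.

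Macrophage genes also differed by sex: 19 of 22 were called lower in Pxr+/+ Cont males, with a median of -0.99, 7 in Pxr-/- Cont males (median -0.64), 9 in Pxr+/+ ATB males (median -0.63) and 0 in Pxr-/- ATB males (median -0.14), where 34.2%, 15.9%, 10.3% and 27.5% of all genes were called lower. In the last comparison the Atp6v0d2 difference was -2.13. The part of the macrophage genes in the sex difference of Atp6v0d2 was not tested. Among the remaining subunits 7, 2, 1 and 2 of the 11 were called lower in males in Pxr+/+ Cont, Pxr-/- Cont, Pxr+/+ ATB and Pxr-/- ATB mice, beside the same shares of all genes, and the last 3 counts are near or below what those shares give. Tcirg1, the subunit a isoform of osteoclasts and immune cells, was among the called genes each time (-0.65, -0.47, -0.48 and -0.49 by its brighter probe).

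Loss of PXR gave no called difference in any of the 10 genes. Atp6v0d2 in Pxr-/- less Pxr+/+ mice differed by -0.11 (SE 0.25) in M Cont, -0.16 (SE 0.24) in F Cont, -0.42 (SE 0.24) in M ATB and -0.20 (SE 0.24) in F ATB mice, with adjusted p of 0.997, 0.711, 0.275 and 1 in limma's test. The 95% intervals ran from -0.62 to 0.40, from -0.65 to 0.32, from -0.90 to 0.06 and from -0.68 to 0.28, so that in ATB males a level lower by as much as 0.90 lay within the error. The share of all genes called was 0.192%, 4.16%, 1.25% and 0.238% in these comparisons.

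For the other 9 subunits the count was 0 in all 4, with 0, 6, 2 and 2 at an unadjusted p under 0.05, against 6.82%, 26.9%, 27.9% and 7.03% of all genes. The medians of all probes were -0.04, -0.11, -0.13 and 0.01. In F Cont mice the second Atp6v0c probe passed on adjusted p but not on fold (-0.25, SE 0.08, adjusted p 0.0498). Atp6v0b followed at -0.23 (SE 0.08, adjusted p 0.0903) and Atp6v0d1 at -0.29 (SE 0.10, adjusted p 0.107). Of the interactions between ATB, genotype and sex, 0 were called for any of the 9, where 0.0183% (ATB by genotype in males), 0% (in females), 0.0457% (ATB by sex in Pxr+/+), 0.00457% (in Pxr-/-) and 0.0229% (genotype by sex in Cont) of all genes were called, with 1 of 9 at an unadjusted p under 0.05 for the ATB by genotype term in males, 4 for that in females, and 3 and 0 for the ATB by sex term in Pxr+/+ and Pxr-/- mice. All genes passed that p in 7.72%, 14.1%, 17.3% and 7.32% of cases.

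Within groups, the other subunits correlated more with each other than with Atp6v0d2, apart from Atp6v1h. After removal of group and wash batch means, the 36 pairs among the 9 genes had a median r of 0.43 over the 47 mice (from -0.35 to 0.75), and the 9 pairs with Atp6v0d2 a median of 0.02 (from -0.14 for Atp6v0c to 0.46 for Atp6v1h). These mice share slides and normalization, and the values are given without a test.

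Among the 10 genes most like Atp6v0d2 over the 47 arrays, by Pearson r of the highest-signal probes, were Sult1a1 (r 0.919, Spearman rho 0.892), 6330412A17Rik, Nrn1, A230006K03Rik, Cables1, Abhd2, Agxt, Prlr and Cyp2c39, the last at r 0.889. Sult1a1 is a cytosolic sulfotransferase and Prlr the prolactin receptor. These 9 were lower in males in all 4 sex comparisons, so that r over these groups reflects sex as well as treatment. Within groups r with Atp6v0d2 ran from 0.18 for Abhd2 to 0.54 for Sult1a1. In M Pxr+/+ mice the ATB difference was 0.49 for Sult1a1 and 0.41 for Abhd2, against 1.58 for Atp6v0d2. In F Pxr+/+ mice Cables1 differed by 0.89, beside 0.83 for Atp6v0d2. Of the 9 other subunits the closest was Atp6v1b2, with r 0.721, at rank 1020 of 21873 genes.

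Promoters were read because pairs of the 9 genes had a median within-group r of 0.43 (from -0.35 to 0.75). No such r was computed for pairs of other genes, so it is not known whether 0.43 is particular to the pump. Many lysosomal and V-ATPase genes are known to carry E-box-like sites for TFEB and related factors near the start of transcription. RefSeq promoter windows (GRCm38.p6, 250 bases before to 50 after the start) matched 7 of the 10 members, and Atp6v0d2, Atp6v1b2 and Atp6v1h had no entry. CACGTG, which reads the same on both strands, was in the window of 3 of the 7 and of 8.09% of all 27025 genes. Its extension TCACGTGA, also the same on both strands, was in 2 of the 7 and in 1.12% of genes. Of 12 further subunit genes with a window, 1 held CACGTG and 1 TCACGTGA. The stretches around it are printed with the motif in capitals.
Atp6v0b: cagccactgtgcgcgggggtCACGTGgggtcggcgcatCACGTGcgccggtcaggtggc
Atp6v0d1: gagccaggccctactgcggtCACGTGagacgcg
Atp6v1a: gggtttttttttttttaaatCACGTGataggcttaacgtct
They lie at chr4:117887327-117887385, chr8:105566055-105566087 and chr16:44139370-44139410, all on the minus strand. The motif starts 36 and 18 bases before the start of Atp6v0b, 3 before that of Atp6v0d1 and 131 before that of Atp6v1a. A match describes these letters only and no factor was measured at them.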

How the data were processed

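Liver RNA of 47 mice was hybridised to 1-colour arrays, and the authors' deposited scanner files give the intensity of each spot, read as the median brightness of its pixels, and a processed signal. The deposited table holds log2 values that the authors had filtered, corrected for wash batch and normalized with CrossNorm. Here median signals were put on the log2 scale, 422 non-uniform spot values were left out and spots of a probe averaged. The wash batch was removed with group means kept, and CrossNorm was run with 300 random draws. The authors' probe filter and CrossNorm settings are not given in the sources used here, and were set here. limma 3.58.1 in R 4.3.3 was fitted with the 8 groups and the wash batch, and tested on simulated data. Probe names and coordinates (mm9) are those of the array, and 1535 probes were renamed through RefSeq accessions. matplotlib 3.10.9 drew the figures. The named genes are the 10 members, list genes called in an ATB comparison and the 10 genes most correlated with Atp6v0d2, 1 of which is not reported here; other genes (non-members called by sex, undetected markers) were named after their values were seen. Lists also covered T and NK cells, B cells, endothelial and stellate cells and cholangiocytes, with 0 limma calls in the 4 ATB comparisons and at most 2 genes of a list at an unadjusted p under 0.05. All genes passed that p in 23%, 9.23%, 13.9% and 15.8% of cases in M Pxr+/+, M Pxr-/-, F Pxr+/+ and F Pxr-/- mice. The summed T and NK cell level had a higher median after ATB in all 4, as Atp6v0d2 did, with overlapping groups. Cont and ATB medians (log2) were 13.44 and 13.83 in M Pxr+/+ and 13.49 and 13.74 in M Pxr-/- mice. In females they were 13.47 and 13.65 in Pxr+/+ and 13.43 and 13.55 in Pxr-/- mice. The summed hepatocyte and lysosomal levels also had a higher median after ATB in all 4, with overlapping groups. Cont and ATB medians of hepatocyte genes, in the same order, were 20.737 and 20.845, 20.722 and 20.724, 20.842 and 20.867, and 20.811 and 20.817. Those of lysosomal genes were 19.05 and 19.30, 19.21 and 19.24, 19.37 and 19.46, and 19.19 and 19.21. The part of T and NK cell, hepatocyte or lysosomal genes in the Atp6v0d2 difference was not tested. The members and lists were chosen with earlier results of these data known. Replicate numbers were not used to pair the mice in the main fit.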

Additional observations from a re-analysis of the deposited data

Results flagged for a closer look

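Each tested probe was read in each group, which made 88 pairs of a probe and a group. In 7 of the 88, 1 mouse stood apart from the rest of its group, and chance gives about 1 in 20 for a single pair. The same mice recur across probes and Atp6v0d2 enters by both its probes, so the pairs are not independent. For Atp6v0d2, replicate 5 of the F Pxr+/+ ATB mice was low by the 3′ probe, at 9.05 beside 9.71 for the next mouse, and by the upstream probe, at 6.33 beside 6.84. Replicate 5 of the F Pxr+/+ Cont mice was low by the upstream probe, at 5.09 beside 6.21, and was also the lowest of its group by the 3′ probe. Atp6v0b was high in replicate 4 of the M Pxr+/+ Cont mice, at 11.45 beside 11.25, and in replicate 2 of the M Pxr+/+ ATB mice, at 11.46 beside 11.30. Atp6v1d was low in replicate 5 of the F Pxr-/- Cont mice, at 11.21 beside 11.53. Atp6v1e1 was high in replicate 3 of the M Pxr+/+ Cont mice, at 11.92 beside 11.77.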

How the results depend on the processing

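The ATB difference of Atp6v0d2 kept its direction under each alternative run. Over other processing it ran from 1.16 to 1.84 in M Pxr+/+, 0.98 to 1.60 in M Pxr-/-, 0.83 to 0.97 in F Pxr+/+ and 0.68 to 0.80 in F Pxr-/- mice, and with 1 mouse left out from 1.42 to 1.67, 1.16 to 1.37, 0.55 to 1.00 and 0.71 to 0.90. The sex difference of Atp6v0d2 was called each time. A block by replicate number gave 1.58, 1.27, 0.83 and 0.80. Whether these numbers pair the mice is not settled. Before wash batch removal, 15 of 47 arrays correlated best with their own number in deviations from group means. Same-numbered arrays of different groups had a median r of 0.016 (from -0.37 to 0.56).

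Counts of the other 9 subunits lower in males depended on the scaling. The count of 4 in Pxr+/+ Cont mice became 0 under quantile normalization, 0 with the processed signal, 0 with normexp and 1 with the authors' values. The count of 3 in Pxr-/- ATB mice became 0, 0, 0 and 1 in the same order, and 1 to 3 with 1 mouse left out, 1 without F Pxr-/- ATB replicate 3. The count of 1 in Pxr-/- Cont mice became 0 under quantile normalization, normexp, the authors' values and a fit of those groups alone, and 0 to 1 with 1 mouse left out, 0 without M Pxr-/- Cont replicate 3. In Pxr+/+ ATB mice leaving out 1 mouse gave 0 to 1 (1 without M or F Pxr+/+ ATB replicate 2, 3 or 5), and for PXR in F Cont mice 0 to 2 (1 without Pxr+/+ replicate 1 or 6, 2 without Pxr-/- replicate 4). The cause was not tested. For Atp6v0d2 the PXR difference in males less females, 0.05, was -0.048 under quantile normalization, -0.049 with the processed signal, -0.028 with normexp and -0.12 to 0.33 with 1 mouse left out, and the PXR difference in F Cont mice -0.45 to 0.0060. Low signal limits the upstream Atp6v0d2 probe in male Cont mice.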
